A study of Drosophila melanogaster with 24 samples.

Results

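The proteasome genes were taken as every row of the deposited gene table whose symbol starts with Prosalpha or Prosbeta, or reads Rpn or Rpt followed by a digit. The rule found 47 of the 17768 genes. Of these, 32 encode the constitutive particle: 7 alpha ring and 7 beta ring subunits of the core, and 10 base and 8 lid subunits of the regulatory particle. The other 15 carry a T or an R after the number and are copies of a constitutive subunit, 10 of the core and 5 of the regulatory particle. All 47 passed the filter on low counts, in a table where 13868 genes did.

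The proteasome degrades proteins tagged with ubiquitin. Its core is a barrel of stacked rings whose beta subunits hold the proteolytic sites, and its regulatory particle binds the tagged protein, removes the ubiquitin, unfolds the chain with a ring of ATPases and threads it through the gate formed by the alpha ring. In Drosophila many subunits have a second gene, and several of these copies are known to be expressed in the testis, where they take part in sperm formation; in flies and mammals the constitutive genes are also known as targets of a shared transcription factor, CncC in the fly.

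RNA came from whole male Drosophila aged 1 to 7 days and was sequenced as 24 libraries, 4 in each of 6 groups. The groups were injured homozygotes (Reldel/Reldel), uninjured homozygotes, injured heterozygotes (+/Reldel), uninjured heterozygotes, injured wild type and uninjured wild type, all in a yw background. Flies were kept at 25 °C on molasses food, and injured flies were stored 4 h after traumatic brain injury (TBI), by a standard protocol that the labels name but do not describe. Reldel is an allele of Rel, the NF-kappaB factor of the Imd immune pathway, present in the whole animal, and RNA of whole bodies averages over all organs. Nothing in the labels ties the 4 libraries of a group to separate cultures, so each p-value rests on a spread that may be technical.

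The Rel counts matched the labels. Homozygotes had 0 counts in each injured library and 1, 0, 0 and 0 in the uninjured ones, and the lowest heterozygote library had 273. Library totals ran from 6543632 to 14660491 counts. Injured wild type library 4 held 330.2 summed CPM (counts scaled to a common library size) of 16 female and ovary markers, against at most 10.1 in any other library. Some libraries stood apart in the proteasome genes themselves. In injured homozygote library 1 the core subunits summed to 928.7 CPM, against 1260 to 1293 in the other 3 libraries of its group. Uninjured heterozygote library 3 had 1372 CPM of core subunits, against 956.3 to 1093 in its group. Uninjured wild type library 4 had 1028 CPM of copies, against 866.7 to 893.3, and uninjured homozygote library 3 had 815.2 CPM of copies, against 924.5 to 928.1.

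Levels of different genes were compared as CPM per kilobase of annotated exon (mean ± SD over the 24 libraries). The constitutive subunits other than Prosalpha1 spanned a 6.32-fold range although the particle holds them in fixed proportions. Prosalpha2 was the highest at 152 ± 14.5 CPM per kb, followed by Prosalpha7 at 129.6 ± 19.3, the beta ring subunit Prosbeta3 at 127 ± 22.2 and the lid subunit Rpn6 at 124 ± 9.82. These 4 overlapped in their ranges over libraries, and only Prosalpha2 never fell below 123 CPM per kb. The lowest were the ATPase Rpt3 at 24 ± 3.95, the base scaffold Rpn1 at 25.2 ± 3.09, the ATPase Rpt4 at 29.9 ± 3.64 and the lid subunit Rpn12 at 33.7 ± 5.21. Among the proteolytic subunits, Prosbeta5 (chymotrypsin-like) stood at 99.9 ± 10.01 CPM per kb, above Prosbeta2 (trypsin-like) at 79.3 ± 5.69 and Prosbeta1 (caspase-like) at 79.3 ± 14.8, and the means of Prosbeta2 and Prosbeta1 differed by less than their SDs.

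The highest copies were about as abundant as the proteolytic subunits in these whole males, and Prosalpha4T1, Prosbeta2R1, Prosalpha3T and Prosbeta2R2 averaged less than Rpt3. Prosbeta5R1 reached 93.5 ± 10.7 CPM per kb, Rpn12R 91.3 ± 12.3 and Prosalpha6T 82.1 ± 7.67, while Prosbeta2R2 was the lowest copy at 14.4 ± 2.74. Per exon length, Rpn12R exceeded its constitutive counterpart Rpn12 in 24 of 24 libraries, by 2.79 ± 0.69 times. Prosalpha6T exceeded Prosalpha6 in 23 of 24 libraries (1.31 ± 0.18 times) and Rpt3R exceeded Rpt3 in 22 of 24 (1.38 ± 0.31 times). Rpt6R and Prosalpha4T2 were about level with their counterparts, at ratios of 1.08 ± 0.17 and 1.07 ± 0.18. Prosalpha3T, Prosbeta2R1, Prosbeta2R2, Prosbeta4R1, Prosbeta5R2 and Prosalpha4T1 were below theirs in every library, with mean ratios of 0.18 to 0.64. The testis and germline list of 26 markers summed to between 7205 and 11850 CPM in each of the 24 libraries.

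**Figure D1:**
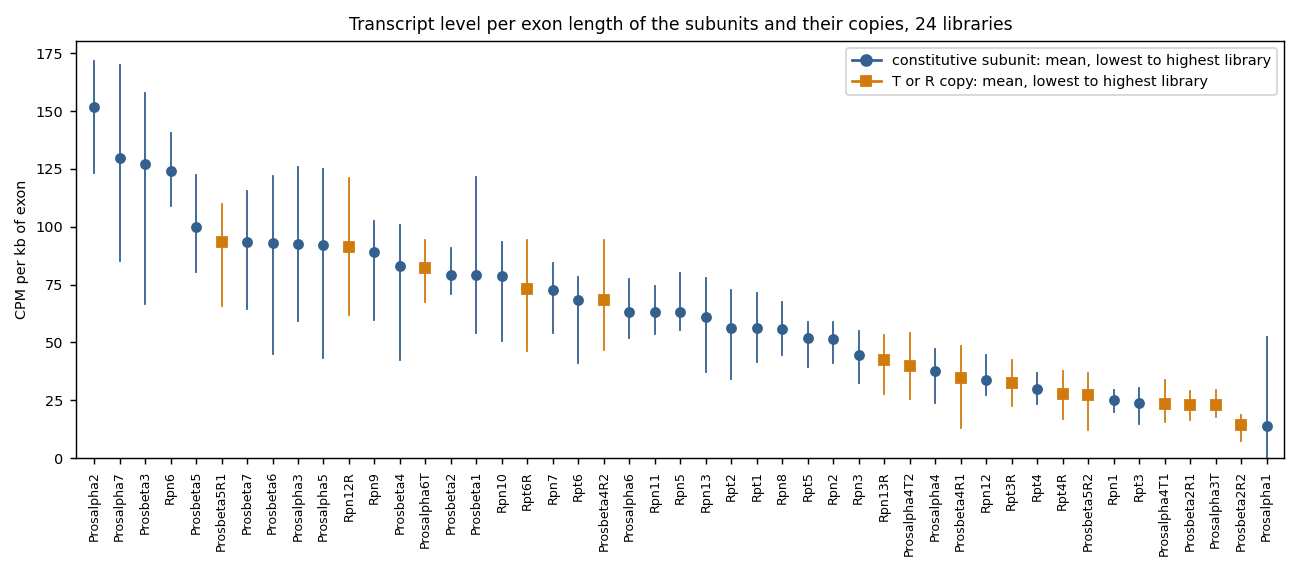
Transcript level of each proteasome gene in CPM per kb of exon, ordered from high to low; points are means and lines run from the lowest to the highest of 24 libraries. Prosalpha2 is the highest at 152 CPM per kb, and the copies, drawn as squares, run from Prosbeta5R1 at 93.5 to Prosbeta2R2 at 14.4 CPM per kb.

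Prosalpha1, an alpha ring subunit (2R:7827303-7828678 on dm6), had the lowest mean of all 47 genes, 14.04 ± 13.2 CPM per kb, and was at 0 in 5 of 24 libraries. Its neighbour CG30382 (2R:7830413-7831771), which the reference tables name Prosalpha1R and which the symbol rule does not include, had 161 ± 32.4 CPM. The coefficient of variation was 94.0% for Prosalpha1, 20.1% for CG30382 and 14.2% for the sum of both. CG30382 made up most of the sum, so the sum was bound to vary less than Prosalpha1. Prosalpha1 took 0% to 20.4% of the pair's counts in 23 libraries and 58.2% in injured homozygote library 1, where the sum itself was 87.4 CPM against 142 to 207 CPM elsewhere. The share was 0% in injured heterozygote libraries 1 and 4, in uninjured heterozygote library 3 and in injured wild type libraries 1 and 3. Where 2 genes are near-identical, the estimated counts depend on how reads were divided, so the level of Prosalpha1 alone is uncertain. The summed pair did not pass in any of the 10 comparisons; over all genotypes its log2 fold change with injury was 0.04 ± 0.09 (adjusted p = 0.778, edgeR quasi-likelihood test).

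**Figure D2:**
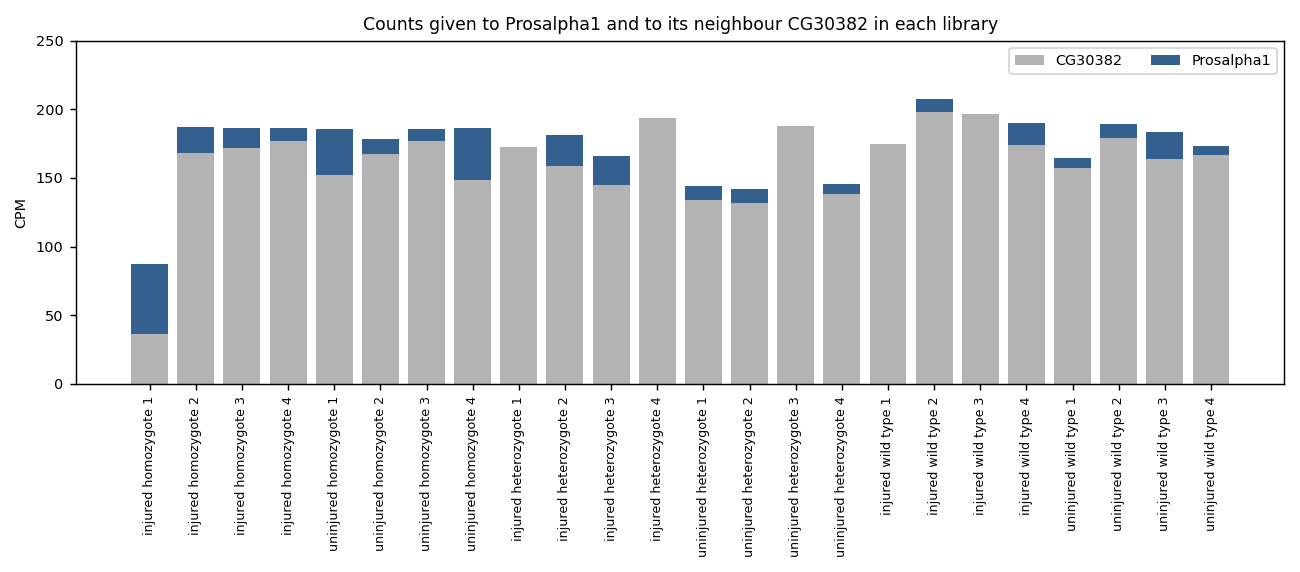
CPM given to CG30382 (grey) and Prosalpha1 (blue) in each of the 24 libraries, stacked. Injured homozygote library 1 has the smallest sum, 87.4 CPM, and the largest Prosalpha1 share, 58.2%.

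The first question was whether brain injury changed proteasome transcripts. In wild type the constitutive genes were mostly a little higher after injury, with 29 of 32 estimates above 0, against 48.1% of all genes. These genes varied together over libraries (described below), so counts of their estimates above or below 0 are not independent, here and in later comparisons. Their median log2 fold change was 0.19, against -0.01 over all genes tested. No subunit passed an adjusted p of 0.05 in wild type by edgeR's quasi-likelihood test, where 3.79% of all genes did. At an unadjusted p under 0.05 there were 6 constitutive subunits, all higher, against 14.1% of all genes in either direction, and DESeq2 called 1 subunit, Prosbeta5. Core subunits summed to 1376, 1254, 1263 and 1293 CPM in injured wild type, against 1172, 1205, 1072 and 1074 CPM in uninjured wild type. The regulatory particle summed to 1987, 1838, 1923 and 1835 CPM in injured wild type, against 1809, 1779, 1581 and 1711 CPM in uninjured wild type. In both sums every injured library lay above every uninjured one. The libraries were likewise fully separated, injured above uninjured, for 9 of the 32 constitutive genes, where 8.5% of all genes were. They were Prosalpha6, Prosbeta5, Prosbeta6, Rpn1, Rpn8, Rpn11, Rpn12, Rpn13 and Rpt2. Without uninjured wild type library 4 the median was 0.14 and 0 subunits were called. Over the fits that left out 1 wild type library, the median ran from 0.14 to 0.22 and 0 subunits were called.

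Heterozygotes had a similar pattern with more scatter. The median over the constitutive genes was 0.23, with 28 of 32 estimates above 0, against 48.7% of all genes. In this comparison 0 of the 47 proteasome genes were called, where 4.74% of all genes were. At an unadjusted p under 0.05 there were 10 subunits, all higher, against 18.9% of all genes, and DESeq2 called 2, Prosalpha6 and Rpn11. Core subunits summed to 1292, 1469, 1265 and 1335 CPM in injured heterozygotes, against 956, 1056, 1372 and 1093 CPM in uninjured heterozygotes. The groups overlapped through uninjured heterozygote library 3 alone. Without that library the median was 0.35 and 8 subunits were called, all higher: Prosalpha3, Prosalpha6, Prosbeta1, Prosbeta7, Rpn7, Rpn11, Rpn12 and Rpn13. Over all genes that fit called 1495, 906 of them higher, against 658 called with all libraries.

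In homozygotes the constitutive genes showed no common direction, with 14 of 32 estimates above 0, against 49% of all genes, and a median of -0.02. Core subunits summed to 929, 1293, 1288 and 1260 CPM in injured homozygotes, against 1335, 1068, 1319 and 1181 CPM in uninjured homozygotes, and the groups overlapped. No constitutive subunit was called, where 5.87% of all genes were; 1 of them, the lid subunit Rpn9, had an unadjusted p under 0.05 (log2 fold change -0.22 ± 0.10, adjusted p = 0.197), as did 22.4% of all genes. DESeq2 called no constitutive subunit either. For 31 of the 32 the 95% interval lay within a 1.5-fold change in either direction, the exception being Prosalpha1. The same held for 25 of 32 in wild type and 22 of 32 in heterozygotes, and in homozygotes for 44.6% of all genes. A rise of the wild type size, with a median of 0.19, also lies within that bound, so these intervals do not separate the genotypes. The homozygote median was 0.07 without injured homozygote library 1.

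**Figure D3:**
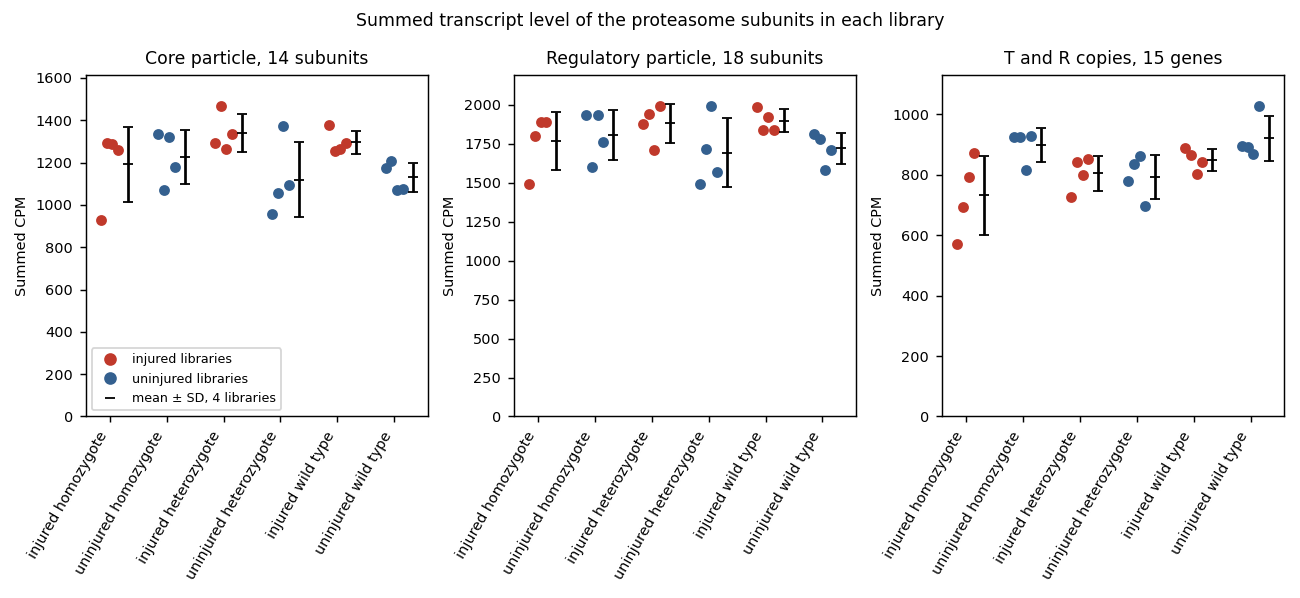
Summed CPM of the core particle, the regulatory particle and the T and R copies in each library, by group, with the mean ± SD of 4 libraries beside the points. In wild type the injured libraries lie above the uninjured ones for both particles, and injured homozygote library 1 is the lowest library in all 3 panels except for the regulatory particle, where 1 uninjured heterozygote library is at 1491 CPM.

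Averaged over the 3 genotypes, 5 constitutive subunits rose with injury and none fell, of 32 tested: Prosbeta5, Prosalpha6, Rpn13, Prosalpha3 and Rpn12. In this comparison 18.3% of all genes were called, 11.6% higher and 6.71% lower, so the share of constitutive subunits called higher was close to that of genes at large. Estimates were above 0 for 29 of 32 constitutive genes, against 47.7% of all genes, and their median was 0.14, against -0.01. At an unadjusted p under 0.05 there were 10 constitutive subunits, all higher, against 32.8% of all genes in either direction. The 95% intervals of 31 of the 32 lay within a 1.5-fold change, as did those of 74.8% of all genes. Every effect was small, between 14.6% and 23.4% among the called subunits.

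Prosbeta5 (2R:10819978-10821178, plus strand), the chymotrypsin-like subunit of the beta ring, had the smallest adjusted p. Prosbeta5 had 110.2, 139.5, 116 and 108 CPM in injured homozygotes, against 105, 106, 113 and 97.7 CPM in uninjured homozygotes. Prosbeta5 had 124, 126, 123 and 113 CPM in injured heterozygotes, against 99.9, 108, 122 and 115 CPM in uninjured heterozygotes. Prosbeta5 had 128, 121, 126 and 124 CPM in injured wild type, against 106, 106, 103 and 91.4 CPM in uninjured wild type. The groups did not overlap in wild type and overlapped in heterozygotes and homozygotes. Over all genotypes it rose by 14.6% (averaged log2 fold change 0.20 ± 0.05, adjusted p = 0.0112, edgeR), with a 95% interval of 0.09 to 0.31. The call held under all 30 alternative settings.

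Prosalpha6 (2L:10221351-10222546, plus strand), an alpha ring subunit, followed. Prosalpha6 had 64.6, 68.7, 72 and 72.7 CPM in injured homozygotes, against 74.1, 58.6, 78.8 and 63.5 CPM in uninjured homozygotes. Prosalpha6 had 83, 68.7, 72.7 and 80.6 CPM in injured heterozygotes, against 56.3, 58.5, 69.7 and 62.7 CPM in uninjured heterozygotes. Prosalpha6 had 74.8, 68.5, 75.5 and 68.8 CPM in injured wild type, against 59.7, 60.3, 55.4 and 58.7 CPM in uninjured wild type. Injured wild type libraries were all above uninjured ones, while in homozygotes the injured libraries lay inside the uninjured range. The averaged rise was 15.2% (averaged log2 fold change 0.20 ± 0.06, adjusted p = 0.0132), and it too was called under all 30 alternatives.

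Rpn13 (2R:13958545-13960404, minus strand) is a ubiquitin receptor of the base. Rpn13 had 86, 111, 118 and 113 CPM in injured homozygotes, against 119.8, 75.2, 106 and 88.8 CPM in uninjured homozygotes. Rpn13 had 117, 130, 99.5 and 116 CPM in injured heterozygotes, against 62.6, 80.3, 113 and 80.5 CPM in uninjured heterozygotes. Rpn13 had 127, 106, 105 and 118 CPM in injured wild type, against 95.6, 105, 85.8 and 81.3 CPM in uninjured wild type. In wild type the lowest injured library lay above the highest uninjured one by less than the rounding of these values, and in the other genotypes the groups overlapped. Rpn13 rose by 23.2% on average (averaged log2 fold change 0.30 ± 0.09, adjusted p = 0.0237). The call was lost without uninjured wild type library 4 (adjusted p = 0.0541) and without uninjured homozygote library 2 (adjusted p = 0.0546), the range over 30 alternatives being 0.00329 to 0.0546.

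Prosalpha3 (2R:20994900-20996118, plus strand) is the alpha ring subunit whose counterpart in yeast helps to close the gate of the core. Prosalpha3 had 71, 111, 98.2 and 96.3 CPM in injured homozygotes, against 99.9, 72.3, 98.4 and 79.3 CPM in uninjured homozygotes. Prosalpha3 had 104, 122, 88.2 and 112 CPM in injured heterozygotes, against 57.5, 67.1, 107 and 73 CPM in uninjured heterozygotes. Prosalpha3 had 109, 93.8, 88.9 and 97.5 CPM in injured wild type, against 83, 89.2, 72.2 and 67.9 CPM in uninjured wild type. The groups overlapped within every genotype. On average it rose by 23.4% (averaged log2 fold change 0.30 ± 0.10, adjusted p = 0.0303). Rpn12 (3L:16583028-16584022, plus strand) is a lid subunit. Rpn12 had 27.6, 37.7, 36.8 and 36.8 CPM in injured homozygotes, against 31, 28.8, 38.6 and 30.1 CPM in uninjured homozygotes. Rpn12 had 41.6, 44.5, 37.5 and 32.8 CPM in injured heterozygotes, against 28.1, 27.8, 41.8 and 33.4 CPM in uninjured heterozygotes. Rpn12 had 33.9, 35, 35.5 and 35.3 CPM in injured wild type, against 27.5, 28.6, 27.5 and 27.1 CPM in uninjured wild type. In wild type its injured libraries were all above the uninjured ones, and in the mutant genotypes they overlapped. The difference between genotypes did not pass (adjusted p = 0.934 for homozygotes minus wild type). Averaged over genotypes Rpn12 rose by 17.7% (averaged log2 fold change 0.24 ± 0.08, adjusted p = 0.0322). Prosalpha3 was called under 21 and Rpn12 under 20 of 30 alternatives.

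The other proteolytic subunits did not pass. Prosbeta1 had 49.9, 66.2, 71.1 and 66.4 CPM in injured homozygotes, against 78.1, 51.3, 69.6 and 60.9 CPM in uninjured homozygotes. Prosbeta1 had 67.5, 104, 75.8 and 76.7 CPM in injured heterozygotes, against 46.2, 52.5, 84.2 and 60.9 CPM in uninjured heterozygotes. Prosbeta1 had 69.8, 73.2, 65.1 and 79.2 CPM in injured wild type, against 58.5, 75.4, 60.5 and 58.1 CPM in uninjured wild type. Prosbeta1 overlapped in every genotype, in wild type through uninjured library 2 and in heterozygotes through uninjured library 3 (averaged log2 fold change 0.19 ± 0.10, adjusted p = 0.186). Prosbeta2 had 83.2, 79.4, 79.4 and 73.4 CPM in injured homozygotes, against 75.8, 89, 79.4 and 75.4 CPM in uninjured homozygotes. Prosbeta2 had 83.9, 75.7, 91.5 and 79.9 CPM in injured heterozygotes, against 76.3, 77, 93.9 and 89.2 CPM in uninjured heterozygotes. Prosbeta2 had 82.6, 83.6, 90.01 and 83.8 CPM in injured wild type, against 88.7, 79.5, 82.2 and 74.4 CPM in uninjured wild type. Prosbeta2 overlapped in every genotype too, and its averaged estimate was near 0 (averaged log2 fold change 0.01 ± 0.05, adjusted p = 0.938, 95% interval -0.10 to 0.12).

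In the base, the ATPase subunits Rpt2 and Rpt3 and the ubiquitin receptor Rpn10 were not called. Rpt2 had 55.8, 95.5, 104 and 102 CPM in injured homozygotes, against 99.8, 73.7, 104 and 87.2 CPM in uninjured homozygotes. Rpt2 had 104, 118, 87.9 and 113 CPM in injured heterozygotes, against 63, 83.2, 104 and 72.9 CPM in uninjured heterozygotes. Rpt2 had 114, 96.5, 109.9 and 95.6 CPM in injured wild type, against 89, 87.4, 68.5 and 73.4 CPM in uninjured wild type. Rpt2 was separated in wild type, and it had an averaged log2 fold change 0.25 ± 0.10, adjusted p = 0.0827. Rpt3 had 22.9, 38.6, 46.1 and 39.1 CPM in injured homozygotes, against 34.8, 30.6, 44.1 and 37.5 CPM in uninjured homozygotes. Rpt3 had 46.3, 47, 39.9 and 38.3 CPM in injured heterozygotes, against 29.2, 37.3, 47.4 and 33 CPM in uninjured heterozygotes. Rpt3 had 37.6, 37.6, 39.7 and 36.4 CPM in injured wild type, against 36.5, 32.9, 32.6 and 29.4 CPM in uninjured wild type. Rpt3 overlapped in all genotypes, in wild type through a lowest injured value of 36.4 CPM and a highest uninjured value of 36.5 CPM (averaged log2 fold change 0.14 ± 0.09, adjusted p = 0.304). Rpn10 had 72.1, 114, 123 and 124 CPM in injured homozygotes, against 125, 100.4, 128 and 116 CPM in uninjured homozygotes. Rpn10 had 112, 125, 108 and 133 CPM in injured heterozygotes, against 93.2, 101, 128 and 88.7 CPM in uninjured heterozygotes. Rpn10 had 119, 111, 117 and 111 CPM in injured wild type, against 115, 110, 97.4 and 122 CPM in uninjured wild type. Rpn10 showed no separation anywhere (averaged log2 fold change 0.05 ± 0.08, adjusted p = 0.705).

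In the lid, Rpn11 is the metalloprotease that cuts off ubiquitin chains and Rpn8 is its partner. Rpn11 had 66.6, 81.4, 72.8 and 76.4 CPM in injured homozygotes, against 79.6, 68.2, 78.5 and 77.9 CPM in uninjured homozygotes. Rpn11 had 79.7, 90.04, 81.2 and 89.9 CPM in injured heterozygotes, against 64.9, 71, 81.1 and 67.7 CPM in uninjured heterozygotes. Rpn11 had 81.7, 77.9, 77.3 and 81.3 CPM in injured wild type, against 71.8, 76.9, 70.1 and 72.9 CPM in uninjured wild type. Injured wild type libraries lay above the uninjured ones; over all 3 genotypes Rpn11 had an averaged log2 fold change 0.12 ± 0.05, adjusted p = 0.106, and in wild type alone the estimate was 0.13 ± 0.09 (adjusted p = 0.57). Rpn8 had 79.5, 89.2, 86.1 and 86 CPM in injured homozygotes, against 94.5, 68.4, 88.5 and 87.3 CPM in uninjured homozygotes. Rpn8 had 90.7, 98.7, 83.2 and 102 CPM in injured heterozygotes, against 69.6, 78, 91.3 and 80.1 CPM in uninjured heterozygotes. Rpn8 had 103, 92.7, 85.5 and 90.6 CPM in injured wild type, against 81, 81.7, 75.8 and 72.8 CPM in uninjured wild type. For Rpn8 the wild type libraries were likewise separated, with an estimate of 0.26 ± 0.10 there (adjusted p = 0.23) and 0.17 ± 0.06 over all 3 genotypes (adjusted p = 0.0567). Rpn3 had 67.9, 101, 91.8 and 89.4 CPM in injured homozygotes, against 92.5, 66.8, 89.1 and 76.4 CPM in uninjured homozygotes. Rpn3 had 92.9, 93.1, 77.9 and 94 CPM in injured heterozygotes, against 59.2, 73.9, 98.3 and 70.6 CPM in uninjured heterozygotes. Rpn3 had 97.8, 77, 80.4 and 85.1 CPM in injured wild type, against 79, 79, 61.2 and 65.5 CPM in uninjured wild type. Rpn3, another lid subunit, overlapped in all genotypes (averaged log2 fold change 0.20 ± 0.08, adjusted p = 0.0972), and among uninjured heterozygotes library 3 was again the highest. Rpn9 had 100.4, 131, 138 and 145 CPM in injured homozygotes, against 150.3, 159, 138 and 155 CPM in uninjured homozygotes. Rpn9 had 144, 133, 143 and 166 CPM in injured heterozygotes, against 155, 151, 153 and 138 CPM in uninjured heterozygotes. Rpn9 had 167, 161, 162 and 154 CPM in injured wild type, against 166, 164, 150 and 172 CPM in uninjured wild type. Rpn9 had the lowest averaged estimate in the lid (averaged log2 fold change -0.09 ± 0.06, adjusted p = 0.299), and its lowest value was that of injured homozygote library 1.

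**Figure D4:**
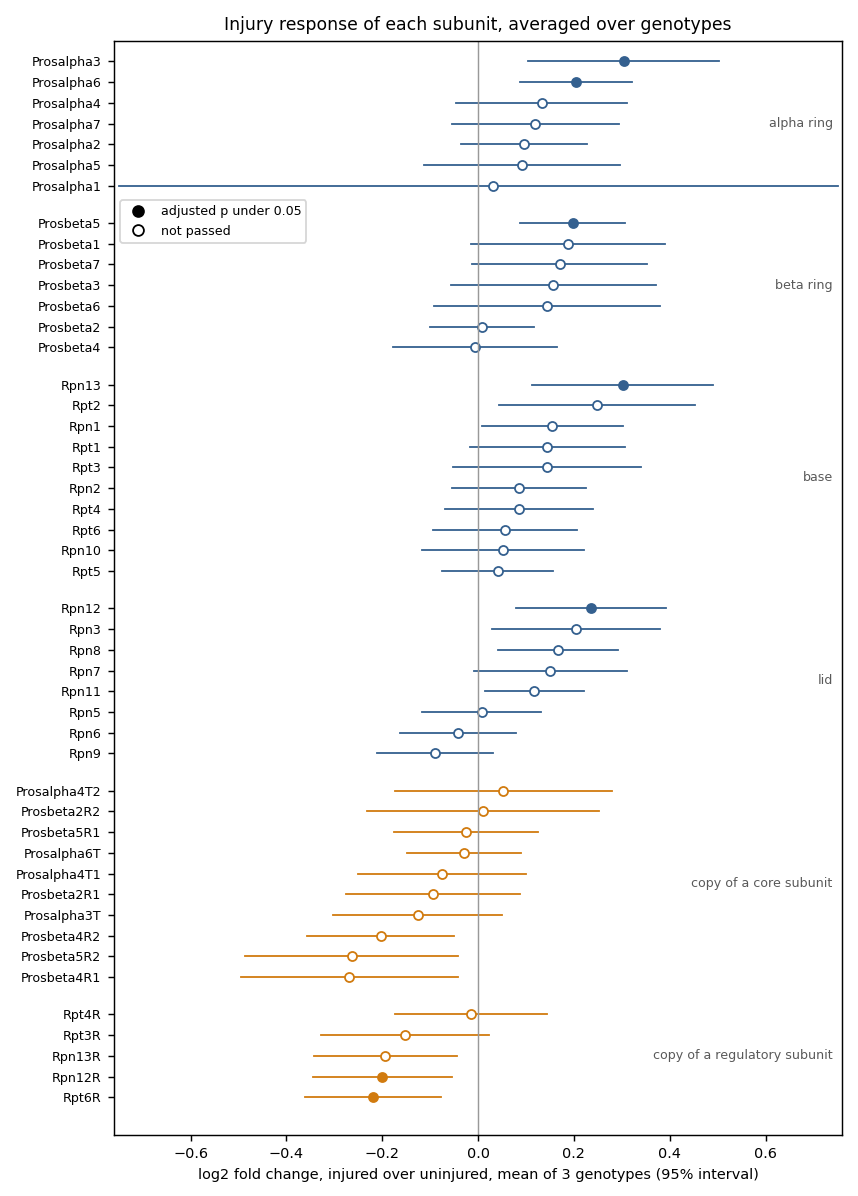
Log2 fold change of injured over uninjured libraries, averaged over 3 genotypes, for each of the 47 genes by role; lines are 95% intervals, and the interval of Prosalpha1 (-1.22 to 1.28) runs past the axis. Filled points passed an adjusted p of 0.05: 5 constitutive subunits above 0 and 2 copies below 0.

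These counts moved with single libraries. The averaged comparison called 7 of the 47 genes with all libraries. It called 13 without uninjured heterozygote library 3, 12 without injured homozygote library 1 and 11 without injured homozygote library 4. It called 4 without injured heterozygote library 2, uninjured heterozygote library 1 or uninjured homozygote libraries 2 or 4, and 3 without uninjured wild type library 4, uninjured heterozygote library 2 or injured homozygote library 2. Over all genes this comparison called 2540 with all libraries and 2063 to 3024 with 1 left out.

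Among the copies, averaged over genotypes, 13 of 15 estimates were negative, the median was -0.13, and 2 of the 15, Rpt6R and Rpn12R, fell with injury. Of all genes 6.71% were called lower, and 47.7% had estimates above 0. Rpt6R (3R:30582198-30583697, minus strand) is a copy of an ATPase subunit. Rpt6R had 66.6, 77.9, 98.1 and 103 CPM in injured homozygotes, against 114, 124, 98.5 and 112 CPM in uninjured homozygotes. Rpt6R had 95.2, 97.2, 94.5 and 105 CPM in injured heterozygotes, against 106, 121, 103 and 89.7 CPM in uninjured heterozygotes. Rpt6R had 108, 119.9, 106 and 103 CPM in injured wild type, against 123, 117, 122 and 136 CPM in uninjured wild type. The groups overlapped in every genotype, and in wild type by 1 uninjured library at 116.6 CPM and 1 injured library at 119.9 CPM. It fell by 14.1% on average (averaged log2 fold change -0.22 ± 0.07, adjusted p = 0.0286).

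Rpn12R (3L:15041631-15042570, minus strand) is the copy of the lid subunit Rpn12. Rpn12R had 58.1, 65.8, 82.4 and 94.2 CPM in injured homozygotes, against 93.4, 90.5, 84 and 104 CPM in uninjured homozygotes. Rpn12R had 76.5, 78.1, 79.2 and 82.1 CPM in injured heterozygotes, against 83.5, 97.5, 83.5 and 74.1 CPM in uninjured heterozygotes. Rpn12R had 85.2, 87, 85.7 and 83.1 CPM in injured wild type, against 93.2, 91.3, 92.3 and 114 CPM in uninjured wild type. Its injured wild type libraries were all below the uninjured ones, where 4.54% of all genes were, and it was the only one of the 47 separated in that direction. Averaged over genotypes it fell by 13% (averaged log2 fold change -0.20 ± 0.07, adjusted p = 0.049). The call passed under 9 of 30 alternatives, with adjusted p from 0.0118 to 0.107. Without injured homozygote library 1 it was 0.0574, and without uninjured wild type library 4 it was 0.0779.

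Prosbeta4R2, a copy of a beta ring subunit, had the highest mean CPM of the copies. Prosbeta4R2 had 77, 103, 95.9 and 107 CPM in injured homozygotes, against 111, 155, 102 and 129 CPM in uninjured homozygotes. Prosbeta4R2 had 83.9, 110.5, 123 and 109.8 CPM in injured heterozygotes, against 120.2, 115, 110.3 and 105 CPM in uninjured heterozygotes. Prosbeta4R2 had 105, 116, 106 and 121 CPM in injured wild type, against 118, 122, 124 and 135 CPM in uninjured wild type. In wild type only injured library 4 lay inside the uninjured range, and the averaged estimate missed the threshold (averaged log2 fold change -0.20 ± 0.07, adjusted p = 0.0587). Its neighbour Prosbeta4R1, next to it on chromosome arm 2L, had the lowest averaged estimate of the 47 genes (averaged log2 fold change -0.27 ± 0.11, adjusted p = 0.0895). Prosbeta5R1 and Prosalpha6T had estimates near 0, at -0.03 ± 0.07 and -0.03 ± 0.06. Prosbeta5R1 had 72.8, 101, 105 and 110 CPM in injured homozygotes, against 122, 108, 106 and 111 CPM in uninjured homozygotes. Prosbeta5R1 had 91.8, 116, 108 and 116 CPM in injured heterozygotes, against 87.8, 105, 110.4 and 82.9 CPM in uninjured heterozygotes. Prosbeta5R1 had 116, 97.9, 90.3 and 106 CPM in injured wild type, against 103, 104, 96.4 and 119 CPM in uninjured wild type. Prosbeta5R1, a copy of the chymotrypsin-like subunit, overlapped in every genotype. Prosalpha6T had 68.8, 73, 79.4 and 90.5 CPM in injured homozygotes, against 95.9, 84.6, 86.4 and 91.3 CPM in uninjured homozygotes. Prosalpha6T had 72.6, 96, 86.6 and 83.3 CPM in injured heterozygotes, against 75.5, 69.7, 88.7 and 75 CPM in uninjured heterozygotes. Prosalpha6T had 88.4, 83.1, 82.8 and 89.3 CPM in injured wild type, against 85, 90.7, 83.1 and 89.99 CPM in uninjured wild type. Prosalpha6T is needed for sperm formation in flies, and its groups overlapped in every genotype. Prosalpha4T2 had 31.9, 36.3, 56 and 56.2 CPM in injured homozygotes, against 57.5, 42.7, 51.8 and 48.4 CPM in uninjured homozygotes. Prosalpha4T2 had 48.1, 68.1, 44.5 and 56.1 CPM in injured heterozygotes, against 36.8, 42.4, 61.7 and 39.7 CPM in uninjured heterozygotes. Prosalpha4T2 had 62.7, 52.7, 41 and 58 CPM in injured wild type, against 53.9, 55.8, 43 and 56.4 CPM in uninjured wild type. Prosalpha4T2 overlapped as well (averaged log2 fold change 0.05 ± 0.11, adjusted p = 0.78).

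In homozygotes every copy had a lower estimate after injury. All 15 estimates were below 0, with a median of -0.27 against -0.01 over all genes. The copies also shared variation over libraries, so their estimates are not independent. None was called by edgeR, where 5.87% of all genes were, 6 had an unadjusted p under 0.05, as did 22.4% of all genes, and DESeq2 called 3, Prosbeta4R2, Rpn13R and Rpt6R. The smallest adjusted p were those of Rpn13R (log2 fold change -0.40 ± 0.13, adjusted p = 0.0619) and Rpt6R (log2 fold change -0.37 ± 0.12, adjusted p = 0.0635). Summed over the 15 copies, injured homozygotes had 569, 692, 791 and 871 CPM, against 924, 925, 815 and 928 CPM in uninjured homozygotes. Injured libraries 1, 2 and 3 were below all uninjured ones. Without injured homozygote library 1 the median was -0.20 and 0 of the 47 genes were called. Without injured homozygote library 4 it was -0.35 and 6 of the 47 were called, all lower. Over all genes that fit called 1582, 485 of them lower, against 814 called with all libraries. Without uninjured homozygote library 3 there were 3 calls among the 47, all lower, and without injured homozygote library 3 there was 1. In heterozygotes the median was -0.01 and in wild type -0.09, with 0 of 15 called in each; without uninjured wild type library 4 the wild type median was -0.02.

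The ratio of summed copies to summed constitutive genes compares both groups of genes within a library. It was 0.246 ± 0.023 in injured and 0.299 ± 0.041 in uninjured homozygotes, 0.250 ± 0.017 in injured and 0.284 ± 0.030 in uninjured heterozygotes, and 0.266 ± 0.012 in injured and 0.323 ± 0.033 in uninjured wild type (SD, n = 4 each). In wild type the injured libraries (0.251 to 0.280) lay below the uninjured ones (0.298 to 0.369), and in the mutant genotypes the ranges overlapped. No test was run on this ratio.

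Testis markers were examined beside the copies, since fewer cells of a type and less RNA per cell cannot be told apart in whole bodies. Of 26 testis and germline markers, 2 fell with injury on average, where 6.71% of all genes did, and none rose: comr (log2 fold change -0.44 ± 0.13, adjusted p = 0.0196) and aly (log2 fold change -0.27 ± 0.09, adjusted p = 0.0428), both regulators of spermatocyte transcription. The share of the list called lower was close to that of genes at large. The list's median was -0.15 on average and -0.24 in homozygotes, -0.05 in heterozygotes and -0.10 in wild type. Its summed level ran from 7996 to 11070 CPM in injured and 9593 to 11850 CPM in uninjured homozygotes. It ran from 8543 to 10510 CPM in injured and 7205 to 10630 CPM in uninjured heterozygotes, and from 8502 to 10540 CPM in injured and 8596 to 11230 CPM in uninjured wild type. Injured homozygote library 1 was the lowest of its group in both the testis list and the copies. Uninjured wild type library 4 was the highest of its group in both. The lowest library was also shared in uninjured wild type and both heterozygote groups, and the highest in every group except uninjured homozygotes. In uninjured homozygotes library 3 was the lowest in the copies (815.2 CPM) and library 2 in the testis list (9593 CPM). In injured wild type library 3 was the lowest in the copies (800.7 CPM) and library 2 in the testis list (8502 CPM). The part of testis content in the copies' values was not tested.

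Markers of other tissues gave medians, averaged over genotypes, of -0.15 for accessory gland, 0.10 for muscle, -0.19 for head and eye, -0.16 for fat body, 0.41 for gut and 0.68 for female and ovary genes. Of those tested, 0 of 7 accessory gland markers were called, 2 of 8 muscle markers rose (Prm and Act57B), 1 of 9 head and eye markers fell (Arr2), 1 of 4 fat body markers fell (apolpp), 2 of 8 gut markers rose (Amy-p and Amy-d), and 1 of 3 female and ovary markers rose (psd). In the averaged comparison 11.6% of all genes were called higher and 6.71% lower. The female and ovary values rest on 3 of 16 genes, and injured wild type library 4 held 330.2 summed CPM of that list. None of these lists had a gene at 0 in all 24 libraries. The medians of the gut and head lists also differed by genotype, and no test was run on medians. The gut list's injury median was -0.09 in homozygotes, 0.61 in heterozygotes and 0.72 in wild type, and 2 of its 8 genes were called higher in uninjured homozygotes than in uninjured wild type, with a median of 1.8. The head and eye list's injury median was 0.17 in homozygotes, -0.32 in heterozygotes and -0.41 in wild type, and 2 of its 9 genes were called lower in uninjured homozygotes than in uninjured wild type, with a median of -0.50. Of all genes 3.96% were called in that comparison, in either direction. No gut or head marker was called between injured homozygotes and injured wild type, or between heterozygotes and wild type. For the difference of injury responses no gut or head marker was called, and by edgeR no gene in the table was. The part of these tissues in the subunits' values was not tested.

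The second question was whether Rel genotype changed the subunits. In uninjured homozygotes 28 of 32 constitutive estimates were above 0 relative to uninjured wild type, with a median of 0.10, against 51.7% above 0 and a median of 0.01 over all genes. No subunit was called, where 3.96% of all genes were. At an unadjusted p under 0.05 there were Prosalpha6, with a higher estimate, and Rpt4R, with a lower one, against 13.1% of all genes, and DESeq2 called 0. Libraries were separated upward for Prosalpha4 and Rpn12, where 4.97% of all genes were, and downward for Rpt4R, where 5.42% were. In injured homozygotes the sign was the opposite relative to injured wild type: 28 of 32 estimates were below 0, where 50% of all genes were above 0, with a median of -0.09. No constitutive subunit was called, where 4.28% of all genes were. At an unadjusted p under 0.05 there were 6 of the 47, all lower, against 16.7% of all genes. Libraries were separated downward for Prosbeta6, Rpt5, Rpn9, Rpt4R and Rpt6R, where 4.9% of all genes were. Among the constitutive genes Rpn9 came nearest, at log2 fold change -0.32 ± 0.10, adjusted p = 0.0813, and was called by DESeq2. Its injured homozygote libraries were all below the injured wild type ones. Without injured homozygote library 1 the median of the constitutive genes was -0.02, and in uninjured homozygotes it was 0.05 without uninjured homozygote library 3.

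Rpt4R (3L:11941912-11943485, plus strand), a copy of the ATPase subunit Rpt4, was the only one of the 47 genes called between genotypes. Rpt4R had 25.1, 31.6, 35.2 and 39.1 CPM in injured homozygotes, against 54.8, 46.3, 45.4 and 46.4 CPM in injured wild type. In uninjured flies it had 43.2, 36.2, 36.9 and 39.2 CPM in homozygotes, against 45.4, 50.8, 46.4 and 56.3 CPM in wild type. In heterozygotes it had 47.6, 45.6, 36.5 and 47.7 CPM after injury and 31.1, 39.9, 45 and 33.8 CPM without. Homozygote libraries were below wild type libraries in both injury states, and uninjured heterozygotes were also below uninjured wild type.

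Rpt4R fell by 31.6% in injured homozygotes relative to injured wild type (log2 fold change -0.55 ± 0.13, adjusted p = 0.0162, edgeR). All genes gave 2.35% called lower in this comparison. The uninjured difference was log2 fold change -0.36 ± 0.13, adjusted p = 0.179, and that of uninjured heterozygotes was log2 fold change -0.41 ± 0.13, adjusted p = 0.259. The injured call was lost without injured homozygote library 1 (log2 fold change -0.44, adjusted p = 0.0563), without injured homozygote library 2 (-0.53, adjusted p = 0.0508), without injured wild type library 1 (-0.48, adjusted p = 0.075) and with only the 2 groups in the fit (-0.55, adjusted p = 0.114). Without injured homozygote library 4 it held, and Rpn9, Rpn13R and Rpt6R were called lower as well. Over all genes, fits that left out 1 library called 433 to 739 in this comparison, against 594 with all libraries. The adjusted p of Rpt4R ran from 0.00452 to 0.114 over 15 alternatives (edgeR or DESeq2). Injured and uninjured homozygotes were each set against their own wild type group, and the genotypes' Rpt4R injury responses did not differ past the threshold (homozygotes minus wild type log2 fold change -0.19 ± 0.19, adjusted p = 0.934).

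Heterozygotes differed little from wild type in the constitutive genes, with medians of 0.02 in injured and -0.02 in uninjured flies. No subunit was called in either, where 0.296% and 0.498% of all genes were, and DESeq2 called 0 in both. Estimates were above 0 for 20 of 32 constitutive genes in injured heterozygotes, where 48.4% of all genes were, and for 14 of 32 in uninjured ones, where 51.7% were. In injured heterozygotes 0 subunits had an unadjusted p under 0.05, as 5.91% of all genes did, and Rpn12R alone was separated downward, where 2.12% of all genes were. The copies were all below 0 in uninjured heterozygotes, with a median of -0.21 against 0.01 over all genes, and 4 had an unadjusted p under 0.05, as 9.54% of all genes did. Libraries were fully separated, heterozygote below wild type, for 4 of the 15: Prosalpha4T1, Prosbeta4R1, Rpn13R and Rpt4R, where 2.52% of all genes were. Prosalpha4T1 had 18.8, 18, 21 and 14.1 CPM in uninjured heterozygotes, against 22.3, 21.9, 22.1 and 30.1 CPM in uninjured wild type (log2 fold change -0.42 ± 0.15, adjusted p = 0.306). The testis list had a median of -0.13 in the same comparison, and its part in this result was not tested. Without uninjured wild type library 4 the median of the copies was -0.16. With uninjured heterozygote library 3 left out, the medians in uninjured heterozygotes were -0.12 for the constitutive genes and -0.26 for the copies.

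**Figure D5:**
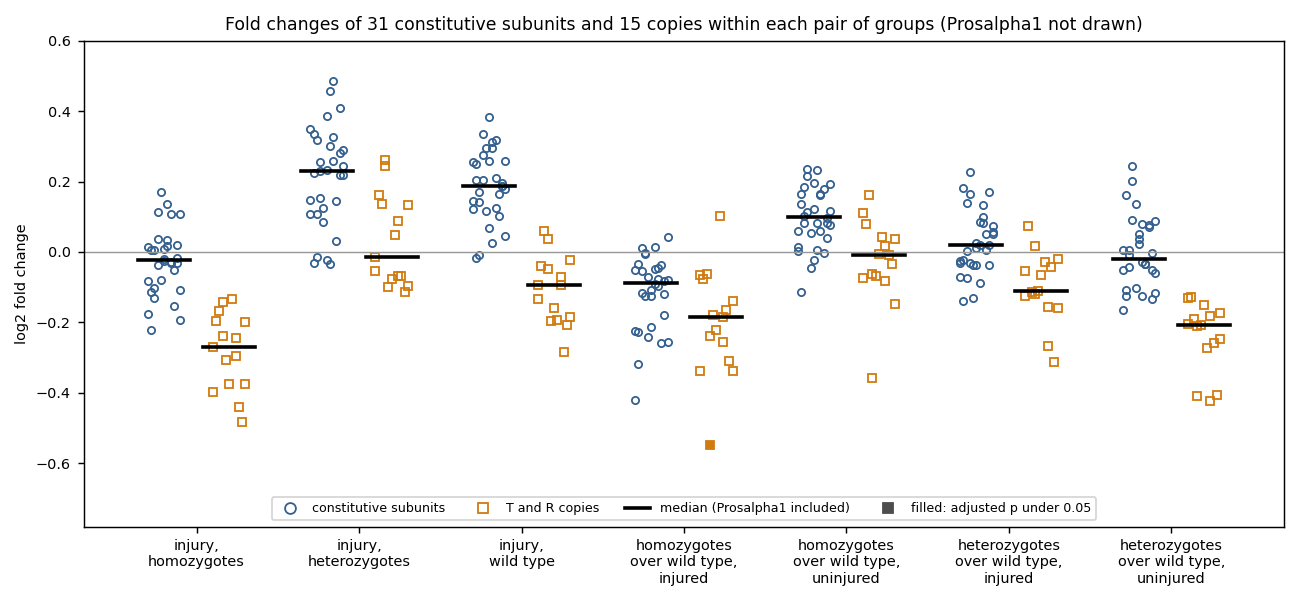
Log2 fold changes of 31 constitutive subunits (circles) and 15 copies (squares) in each pair of groups, injured over uninjured or mutant over wild type; bars are medians, which include Prosalpha1 although it is not drawn. The constitutive medians with injury are -0.02 in homozygotes, 0.23 in heterozygotes and 0.19 in wild type, and the filled square is Rpt4R at -0.55. The comparisons share libraries and are not independent of one another.

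Whether genotype changed the injury response was tested as a difference of responses. For homozygotes minus wild type, 30 of 32 constitutive estimates were below 0, with a median of -0.21, against 46.6% above 0 and a median of -0.03 over all genes. No subunit passed, and no gene in the table did (0%). By edgeR 0 of 47 subunits and 4.67% of all genes had an unadjusted p under 0.05. DESeq2 called 0 of 47 subunits and 3 genes in all. The smallest unadjusted p among the subunits was that of Prosalpha6 (log2 difference -0.28 ± 0.14, adjusted p = 0.934), with a 95% interval of -0.57 to 0.01. For 14 of the 32 the interval lay within a 1.5-fold difference, as for 30.9% of all genes, and for the other subunits it reached past that. The median was -0.11 without injured homozygote library 1. Of the 15 copies 14 had an estimate below 0, with a median of -0.18, and -0.08 without that library. For heterozygotes minus wild type the constitutive median was 0.01 and 18 of 32 estimates were above 0, against 50.1% of all genes. The copies had a median of 0.10, with 15 of 15 above 0. None passed (0% of all genes did), and 0 of 47 subunits and 2.62% of all genes had an unadjusted p under 0.05. DESeq2 called 0 subunits there. Without uninjured heterozygote library 3 these medians were 0.15 for the constitutive genes and 0.21 for the copies.

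The constitutive subunits varied together from library to library. Within groups, 31 of them (without Prosalpha1) had a median SD of 0.188 in log2 CPM. After the mean of the other constitutive subunits in the same library was taken away, the median SD was 0.118, smaller for 26 of 31. For all other genes tested, taking away the same mean gave a median SD of 0.303, where it was 0.257 before, and made it smaller for 29.5%. The mean log2 CPM of the subunits was 6.07 in injured homozygote library 1, against 6.53 to 6.56 in its group. It was 6.66 in uninjured heterozygote library 3, against 6.155 to 6.333 in its group. These SDs were not computed without these libraries, so their part in the shared variation was not tested. Rpt1 (0.193 before, 0.081 after), Prosalpha7 (0.214 and 0.088), Rpn7 (0.188 and 0.084) and Prosalpha2 (0.144 and 0.071) followed the shared level most closely. Rpn5 (0.131 and 0.223), Prosbeta2 (0.107 and 0.195), Rpn9 (0.127 and 0.155), Prosbeta5 (0.106 and 0.136) and Rpn6 (0.120 and 0.134) had a larger SD afterwards. Their SDs before, 0.106 to 0.131, were all below the median.

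For the copies, taking away the constitutive mean left the median SD at 0.209, against 0.201 before, and made it smaller for 7 of 15. Taking away the mean of the other copies gave 0.172 and made it smaller for 13 of 15. These values are descriptions over 24 libraries that share their normalisation, and no test was run on them.

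Regulators and partners of the proteasome were read from a list of 20 genes, all tested. On average over genotypes 3 rose with injury, where 11.6% of all genes did, and none fell: cnc, which encodes CncC (log2 fold change 0.26 ± 0.07, adjusted p = 0.00659), Keap1, its inhibitor (log2 fold change 0.20 ± 0.07, adjusted p = 0.0479), and ref(2)P, the fly counterpart of the ubiquitin-binding autophagy adaptor p62 (log2 fold change 0.22 ± 0.06, adjusted p = 0.0155). The list's median was 0.02. Counts of cnc were for the whole gene, and its transcripts were not examined apart. In homozygotes cnc and Keap1 rose (log2 fold change 0.41 ± 0.11, adjusted p = 0.0346, and log2 fold change 0.42 ± 0.12, adjusted p = 0.0456); in heterozygotes and in wild type 0 of the 20 were called. Leaving out 1 library at a time ended the averaged call of Keap1 in 20 of 24 fits, and in homozygotes it ended the call of cnc in 5 of 8 and that of Keap1 in 7 of 8. Injured homozygote library 1 had 33.5 CPM of Keap1, against 23.5 to 26.3 CPM in the other 3 injured homozygote libraries, and without it the homozygote estimates were 0.31 ± 0.12 for Keap1 (adjusted p = 0.158) and 0.34 ± 0.11 for cnc (adjusted p = 0.104). cnc averaged 163 ± 15.8 CPM in injured and 123 ± 14.5 CPM in uninjured homozygotes, 143 ± 10.1 CPM in injured and 129 ± 11.8 CPM in uninjured heterozygotes, and 129.9 ± 23.1 CPM in injured and 111 ± 1.21 CPM in uninjured wild type (SD, n = 4 each). Uch-L5, a deubiquitinase that binds the regulatory particle, was lower in homozygotes than in wild type, both injured (log2 fold change -0.46 ± 0.10, adjusted p = 0.00672) and uninjured (log2 fold change -0.37 ± 0.10, adjusted p = 0.0326). The uninjured call was lost in 5 of 8 fits that left out 1 library. It was the only gene of the list called between genotypes.

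Other genes known to respond to CncC in Drosophila were read from a list of 9. On average 5 rose with injury, against the same 11.6% of all genes, and none fell: GstD1 (log2 fold change 0.84 ± 0.10, adjusted p = 7.03e-07) and GstD2 (log2 fold change 1.99 ± 0.23, adjusted p = 1.21e-06), both glutathione transferases, Hsp22, a small heat shock protein (log2 fold change 0.90 ± 0.15, adjusted p = 0.000186), Gclc, of glutathione synthesis (log2 fold change 0.34 ± 0.07, adjusted p = 0.00145), and Trxr-1, thioredoxin reductase (log2 fold change 0.45 ± 0.13, adjusted p = 0.021). The list's median was 0.34. Called within genotypes were 2 in homozygotes (GstD2 and Hsp22), 3 in heterozygotes (GstD1, GstD2 and Hsp22) and 2 in wild type (GstD1 and GstD2), all higher. Between genotypes GstD1 and GstD2 were lower and GstE1 and the cytochrome P450 Cyp6a2 higher in injured homozygotes than in injured wild type. In uninjured homozygotes GstD2 was lower and GstE1 and Cyp6a2 were higher, and in heterozygotes Cyp6a2 was higher in both injury states. Leaving out 1 library at a time ended the heterozygote calls of Cyp6a2 in 7 of 8 fits with injury and 4 of 8 without, the homozygote injury call of Hsp22 in 6 of 8, and the injury calls of GstD2 in homozygotes and of Hsp22 in heterozygotes in 1 of 8 each. The called constitutive subunits had averaged log2 fold changes of 0.20 to 0.30, below those of these 5 genes.

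The authors' deposited tables hold all 47 genes in each of 7 comparisons and list none with an adjusted p under 0.05. Injury averaged over genotypes, where most of the calls above were made, is not among those 7 comparisons. The lowest in the authors' deposited tables was 0.0605 in wild type with injury, followed by 0.0787 between injured homozygotes and injured wild type. Per the authors' deposited tables, 6.69% of genes passed with injury in wild type and 4.11% between injured homozygotes and injured wild type.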

How the data were processed

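Whole male flies gave 24 libraries in 6 groups, set by the labels. The authors deposited expected counts for every gene, all of them whole numbers, and their own comparison tables with log2 fold changes and an adjusted p-value (FDR). Tools named in the submitters' processing notes are CASAVA, RSEM (1.2.22), STAR (2.4.2a) and edgeR (3.10.5), and the build named is dm6. Settings, annotation and strandedness are not given in the sources used here. RSEM divides reads that fit several genes, so near-identical genes can exchange counts.

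Genes were compared by edgeR's (4.0.16, under R 4.3.3) two-sided quasi-likelihood F-test on the deposited counts, with TMM factors, filterByExpr, 1 mean per group and 18 residual degrees of freedom. Benjamini-Hochberg adjustment ran over all 13868 genes, and a gene was called at an adjusted p under 0.05. Log2 fold changes are given ± SE, with 95% intervals from the t distribution. CPM uses TMM-effective library sizes, and 3 counts correspond to 0.203 to 0.465 CPM. The 10 comparisons were injury within each genotype and averaged over genotypes, either mutant genotype against wild type among injured and among uninjured flies, and 2 contrasts of injury response between genotypes. Log2 CPM in the description of shared levels used a prior count of 2. Exon lengths and coordinates are those of Ensembl release 115 (dm6), counted from 1. Alternatives were DESeq2 1.42.0 and its size factors, no filter, only the groups compared, a replicate block, and each library left out.

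The genes, lists and comparisons were chosen with earlier results of these data known. Values per library were given for Prosbeta1, Prosbeta2, Prosbeta5, Rpn10, Rpn11 and Rpt3, for the 8 other constitutive genes with the smallest adjusted p, and for the 6 copies with the highest mean CPM. Rpt4R and Prosalpha4T1 were added after their values were seen. Lists of regulators and cofactors, other CncC genes, and markers of gut, fat body, head and eye, muscle, accessory gland, female and ovary, and testis and germline were read as counts and medians, with no test of a list. The fit was run on simulated data with planted changes of 1.5-fold or more in injured wild type. That run does not cover the smaller averaged changes of the called subunits. No sequences were used here.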

Additional observations from a re-analysis of the deposited data

Results flagged for a closer look

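In 144 sets of 4 libraries (20 genes with values per library, Rpt4R and 3 sums, each in 6 groups), the highest or lowest library was checked for a gap to its nearest neighbour whose share of the set's range was past Dixon's 95% critical value. 10 sets had such a library. About 1 in 20 sets would show one by chance.

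Prosbeta1 stood at 75.4 CPM in uninjured wild type library 2, against 58.1 to 60.5 CPM in the other 3 libraries of the group. Prosbeta2 stood at 90.01 CPM in injured wild type library 3, against 82.6 to 83.8 CPM in the other 3 libraries of the group. Rpn11 stood at 68.2 CPM in uninjured homozygote library 2, against 77.9 to 79.6 CPM in the other 3 libraries of the group. Rpn12 stood at 27.6 CPM in injured homozygote library 1, against 36.8 to 37.7 CPM in the other 3 libraries of the group. Rpn12R stood at 114 CPM in uninjured wild type library 4, against 91.3 to 93.2 CPM in the other 3 libraries of the group. Rpn3 stood at 77.9 CPM in injured heterozygote library 3, against 92.9 to 94 CPM in the other 3 libraries of the group. Rpt4R stood at 54.8 CPM in injured wild type library 1, against 45.4 to 46.4 CPM in the other 3 libraries of the group. T and R copies summed stood at 815 CPM in uninjured homozygote library 3, against 924 to 928 CPM in the other 3 libraries of the group. T and R copies summed stood at 1028 CPM in uninjured wild type library 4, against 867 to 893 CPM in the other 3 libraries of the group. Core particle summed stood at 929 CPM in injured homozygote library 1, against 1260 to 1293 CPM in the other 3 libraries of the group. Injured homozygote library 1 appears in 2 of these 10 and uninjured wild type library 4 in 2. No difference of injury responses between genotypes passed the test for any of the 47 genes.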

How the results depend on the processing

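Prosbeta5 and Prosalpha6 passed in the averaged comparison under all 30 alternatives, Rpn13 under 28, Rpt6R under 27, Prosalpha3 under 21, Rpn12 under 20 and Rpn12R under 9; Rpt4R passed in injured homozygotes against injured wild type under 10 of 15. No called value changed sign. Where a count moved by over 1.5 times, the cause was not tested.

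The DESeq2 Wald test called 1 subunit with injury in wild type (0 by edgeR), 2 in heterozygotes (0), 3 in homozygotes (0) and 2 between injured homozygotes and injured wild type (1). Over all genes it called 141 between uninjured heterozygotes and wild type (69 by edgeR), 70 between injured heterozygotes and wild type (41), and 3 for the difference of injury responses, homozygotes minus wild type (0). With only the groups compared in the fit, 1 subunit was called with injury in wild type (Rpn12) and 0 between injured homozygotes and wild type. That fit called 278 genes with injury in heterozygotes, 353 with injury in homozygotes, 33 between uninjured heterozygotes and wild type, 21 between injured heterozygotes and wild type, and 284 between injured homozygotes and wild type. It equals the reported fit for the averaged comparison. Leaving out injured homozygote library 1 and uninjured wild type library 4 together, chosen after seeing the data, gave 0 subunits between injured homozygotes and wild type and 6 in the averaged comparison, where Rpt6R (adjusted p = 0.0552) and Rpn12R (adjusted p = 0.107) were lost. Summing Prosalpha1 and CG30382, also chosen after seeing the data, left 7.

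Leaving out 1 library at a time gave 0 to 8 subunits with injury in heterozygotes, 0 to 6 in homozygotes, 3 to 13 averaged and 0 to 4 between injured homozygotes and wild type. Over all genes it gave 302 to 450 with injury in wild type, 380 to 1495 in heterozygotes and 484 to 1582 in homozygotes, 33 to 150 between uninjured heterozygotes and wild type, and 24 to 39 between injured heterozygotes and wild type.

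Replicate numbers did not pair the samples: libraries of different groups with the same number had a mean correlation of -0.02 in their deviations (-0.44 to 0.37), against 0.01 for different numbers. With the number as a replicate block, 7 subunits were called in the averaged comparison, with Prosbeta4R2 in place of Rpn12R (adjusted p = 0.0521), 1 between injured homozygotes and wild type, and 0 in the other 8 comparisons. Over all genes the block gave 2314 calls averaged, 484 with injury in wild type, 553 in heterozygotes and 742 in homozygotes.

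The shared variation (median SD 0.118) did not move with a prior count of 0.5. Size factors could not move it, since taking away a library's mean also removes its size factor. The spread of levels per exon length (6.32-fold) was the same with the longest transcript. That check says little, since Prosalpha2 and Rpt3, the ends of the range, have the same length by both measures. A promoter motif search could not be run without sequences. Sequenced reads are not independent molecules, so depth figures cover counting error only.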
